A study of Mus musculus with 30 samples.

Results

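Complement genes of the liver were followed in 30 mice: C3, the component on which every route of complement activation converges, Cfb and Cfi, which build and take apart the enzyme that cleaves C3, and Hc, C6, C8a, C8b, C8g and C9, which encode parts of the terminal pathway. Of these 9 genes, 8 have a value among 17097 genes with a named probe set, each from 1 probe set, so no choice between probe sets arose. C3 is named on no probe set with a single symbol in the annotation used and was not analysed here. The genes were chosen by family with earlier results of these data known, and the probe set of each was selected on its mean intensity over the 30 arrays.

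Complement is a chain of plasma proteins that tags and lyses foreign or damaged cells. Its pathways meet at C3, and cleavage of C5 (encoded by Hc) then starts the membrane attack complex, in which C6, C7, the C8 trimer (alpha, beta and gamma chains) and C9 join to form a pore. Hepatocytes make most of these plasma proteins, and several of them are known as acute phase proteins. In mice, serum terminal complement activity is known to be lower in females than in males.

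The arrays measured RNA of liver tissue outside tumours, 1 array per mouse. AspClo denotes 6 mice on CD-HFD, a high-fat feed without choline under which mice develop fatty liver inflammation and then liver cancer (hepatocellular carcinoma, HCC), given aspirin, a cyclooxygenase inhibitor, together with clopidogrel, a blocker of the platelet receptor P2Y12, as prophylaxis. A further 10 mice on CD-HFD received sulindac, another cyclooxygenase inhibitor, as prophylaxis. Vehicle was given to 9 mice on CD-HFD, 4 with HCC and fibrosis and 5 without either. The 5 healthy mice ate chow and are also labelled as vehicle-treated. Strain, genotype, sex, age and batch are not stated in the labels, and the series design text gives 4 vehicle mice where the labels give 9. The labels were followed, and values are log2 intensity throughout.

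Xist and the Y-linked genes divided the AspClo group. Xist, the RNA that coats the inactive X chromosome of female cells, lay between 10.95 and 11.21 in 4 AspClo mice (58, 61, 63 and 64), against 4.55 to 5.03 in all 26 other mice. Eif2s3y, a Y-linked gene, lay between 4.14 and 5.21 in those 4 mice, against 8.37 to 9.14 in the others. Kdm5d and Uty, also Y-linked, were lower there as well, at 4.43 to 4.95 and 4.41 to 4.75, against 5.97 to 6.74 and 5.28 to 6.26. Cyp3a41a, a cytochrome P450 known to be female-predominant in mouse liver, lay between 11.82 and 12.02 in the 4 mice and did not exceed 7.54 elsewhere. Cyp2d9, known to be male-predominant, did not exceed 9.40 in the 4 mice and was at least 11.22 elsewhere. These 4 arrays are called Xist-high below, and changes of the complement genes in AspClo livers are given with and without them.

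Array medians were alike, at 24.1 to 24.6 (intensity), and the tissue carried hepatocyte markers. The lowest intensity of any of the 8 complement genes in any mouse was 201 (C6), against 13.8 for the lowest probe set. Of 10 hepatocyte markers, 7 were measured, and their summed intensity lay between 43386 and 47599 in AspClo, 42956 and 45975 in sulindac, 40945 and 44875 in vehicle, and 41495 and 45265 in healthy livers. Within AspClo the sums were 45349 to 47599 in the Xist-high mice, above every vehicle and healthy mouse. In the other 2 AspClo mice they were 43386 and 44713. Bulk tissue does not separate fewer hepatocytes from less RNA per hepatocyte.

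C6, C8a, C8b and C9 had the largest changes in AspClo against vehicle livers, and of these only C6 and C9 passed the threshold with all mice included. The DNA before the annotated transcript starts of these genes is shown, from RefSeq on GRCm38.p6, restricted to bases outside the annotated gene. RefSeq promoters were found for 6 of the 8 genes, and Cfi and Cfb had none in the table. Short motifs were searched on both strands over 250 bases: GTTAAT, a core of the hepatocyte HNF1 site; TTCNNNGAA, the STAT site; TTGCNNAA, a C/EBP site; and AGGTCA, the core of many nuclear receptor sites. Capitals mark matches.
C6 (chr15:4726960-4727066, plus strand): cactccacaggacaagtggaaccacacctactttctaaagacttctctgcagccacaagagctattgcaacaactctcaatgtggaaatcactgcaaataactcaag
C8a (chr4:104876488-104876648, minus strand): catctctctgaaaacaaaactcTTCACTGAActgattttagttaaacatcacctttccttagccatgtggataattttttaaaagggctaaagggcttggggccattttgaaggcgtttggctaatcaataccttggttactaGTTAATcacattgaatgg
C8b (chr4:104766067-104766316, plus strand): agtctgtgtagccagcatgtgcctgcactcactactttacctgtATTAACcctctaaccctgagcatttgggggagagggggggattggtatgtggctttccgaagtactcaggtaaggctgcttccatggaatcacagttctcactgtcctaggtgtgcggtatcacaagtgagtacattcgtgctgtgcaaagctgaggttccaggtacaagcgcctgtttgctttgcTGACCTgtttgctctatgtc
C9 (chr15:6445096-6445345, plus strand): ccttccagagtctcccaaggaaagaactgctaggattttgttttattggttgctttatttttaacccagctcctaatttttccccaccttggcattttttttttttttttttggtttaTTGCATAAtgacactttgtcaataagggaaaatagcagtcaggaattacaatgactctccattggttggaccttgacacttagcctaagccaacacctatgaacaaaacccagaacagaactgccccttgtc
The C8a stretch holds the STAT motif, at position -228 relative to the start, and the HNF1 motif at -107. The C8b stretch holds the HNF1 motif at -206 and the nuclear receptor motif at -20, both on the opposite strand. C9 holds the C/EBP motif at -132. In C6 the nuclear receptor motif lies at -40, within the annotated gene and outside the stretch shown. Hc, whose sequence is not shown, holds the HNF1 motif at -74, within its annotated gene, and C8g holds none of these motifs. Of 32851 mouse windows of this length, 6.43% hold the HNF1 motif, 7.02% the STAT motif, 9.56% the C/EBP motif and 14% the nuclear receptor motif. A match describes letters only. C8a and C8b are neighbours on chromosome 4 on opposite strands, with 0 annotated genes between them.

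The comparison of AspClo with vehicle asked which genes differ in mice given both antiplatelet drugs on the diet. C9 was lower in all 6 AspClo mice than in every vehicle mouse. C6 and C8a were low in the 4 Xist-high mice, while the other 2 AspClo mice lay within the vehicle range. C8b did not separate the groups, and C8g, Hc, Cfb and Cfi moved by less than 0.08. In all, 2 of the 8 genes, C6 and C9, passed the threshold (limma, adjusted p under 0.05), both lower. Of all genes, 1.96% passed in either direction and 0.977% were lower.

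C6, which binds C5b and recruits the later components, had 8.65, 8.55, 7.65 and 7.78 in the Xist-high AspClo mice and 9.67 and 9.85 in the other 2. It had 10.01, 9.60, 10.86 and 10.41 in vehicle mice with HCC and 10.59, 9.92, 9.70, 11.08 and 11.18 in vehicle mice without. Every Xist-high mouse lay below every vehicle mouse, and the other 2 AspClo mice lay within the vehicle range. C6 averaged 8.69 ± 0.92 in AspClo (SD, n = 6) and 10.37 ± 0.59 in vehicle livers (n = 9), a change of -1.68 (SE 0.338, adjusted p = 0.00824), or 3.21-fold lower. Without the Xist-high mice the change was -0.61 (95% interval -1.50 to 0.27, adjusted p = 0.774).

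C9, the component that polymerises into the pore, had 11.64, 11.92, 11.71 and 11.43 in the Xist-high mice and 11.72 and 11.86 in the other 2 AspClo mice. Vehicle mice with HCC had 12.09, 12.04, 12.32 and 12.08, and those without had 12.11, 11.98, 12.06, 11.96 and 11.96. The groups did not overlap, and the other 2 AspClo mice lay below every vehicle mouse as well. Such separation downwards was seen in 0.216% of all genes. C9 averaged 11.71 ± 0.17 in AspClo (n = 6) and 12.07 ± 0.11 in vehicle livers (n = 9), a change of -0.35 (SE 0.0751, adjusted p = 0.0126), or 1.28-fold lower. Without the Xist-high mice it was -0.28 (95% interval -0.49 to -0.06, unadjusted p = 0.0138, adjusted p = 0.486).

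C8a, the alpha chain of C8, which inserts into the target membrane, had 10.63, 10.90, 10.00 and 10.50 in the Xist-high mice and 11.95 and 11.93 in the other 2. Vehicle livers had a lowest value of 11.51, a median of 11.74 and a highest of 12.18. The 4 Xist-high mice lay below all 26 other mice, and the other 2 AspClo mice sat inside the vehicle range. Over all 6 mice the change was -0.81 (SE 0.228), which missed the threshold (adjusted p = 0.0599). Without the Xist-high mice it was 0.14 (95% interval -0.32 to 0.61).

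C8b, the beta chain, through which C8 docks onto the growing complex, had 8.93, 9.06, 8.58 and 9.20 in the Xist-high mice and 10.64 and 10.00 in the other 2. Vehicle livers ranged from 8.66 through a median of 9.51 to 11.33. The groups overlapped, since vehicle mice themselves were spread over a wide range. The change was -0.52 (95% interval -1.34 to 0.30, adjusted p = 0.598), and 0.40 (-0.80 to 1.60) without the Xist-high mice.

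The remaining genes changed little. C8g, the gamma chain, which belongs to the lipocalin family, had a change of 0.06 (95% interval -0.01 to 0.14). Hc, the C5 gene, had a change of -0.08 (-0.20 to 0.04). Cfb, the factor B protease of the alternative pathway, had a change of 0.07 (-0.03 to 0.17), and Cfi, the factor I protease that inactivates C3b, had 0.06 (-0.01 to 0.14). None of these passed the threshold, and each interval ends within 0.2 of 0. When the Xist-high mice were left out, the changes were 0.06 for C8g (95% interval -0.06 to 0.18), -0.13 for Hc (-0.31 to 0.06), 0.02 for Cfb (-0.14 to 0.18) and 0.000597 for Cfi (-0.11 to 0.11).

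**Figure D1:**
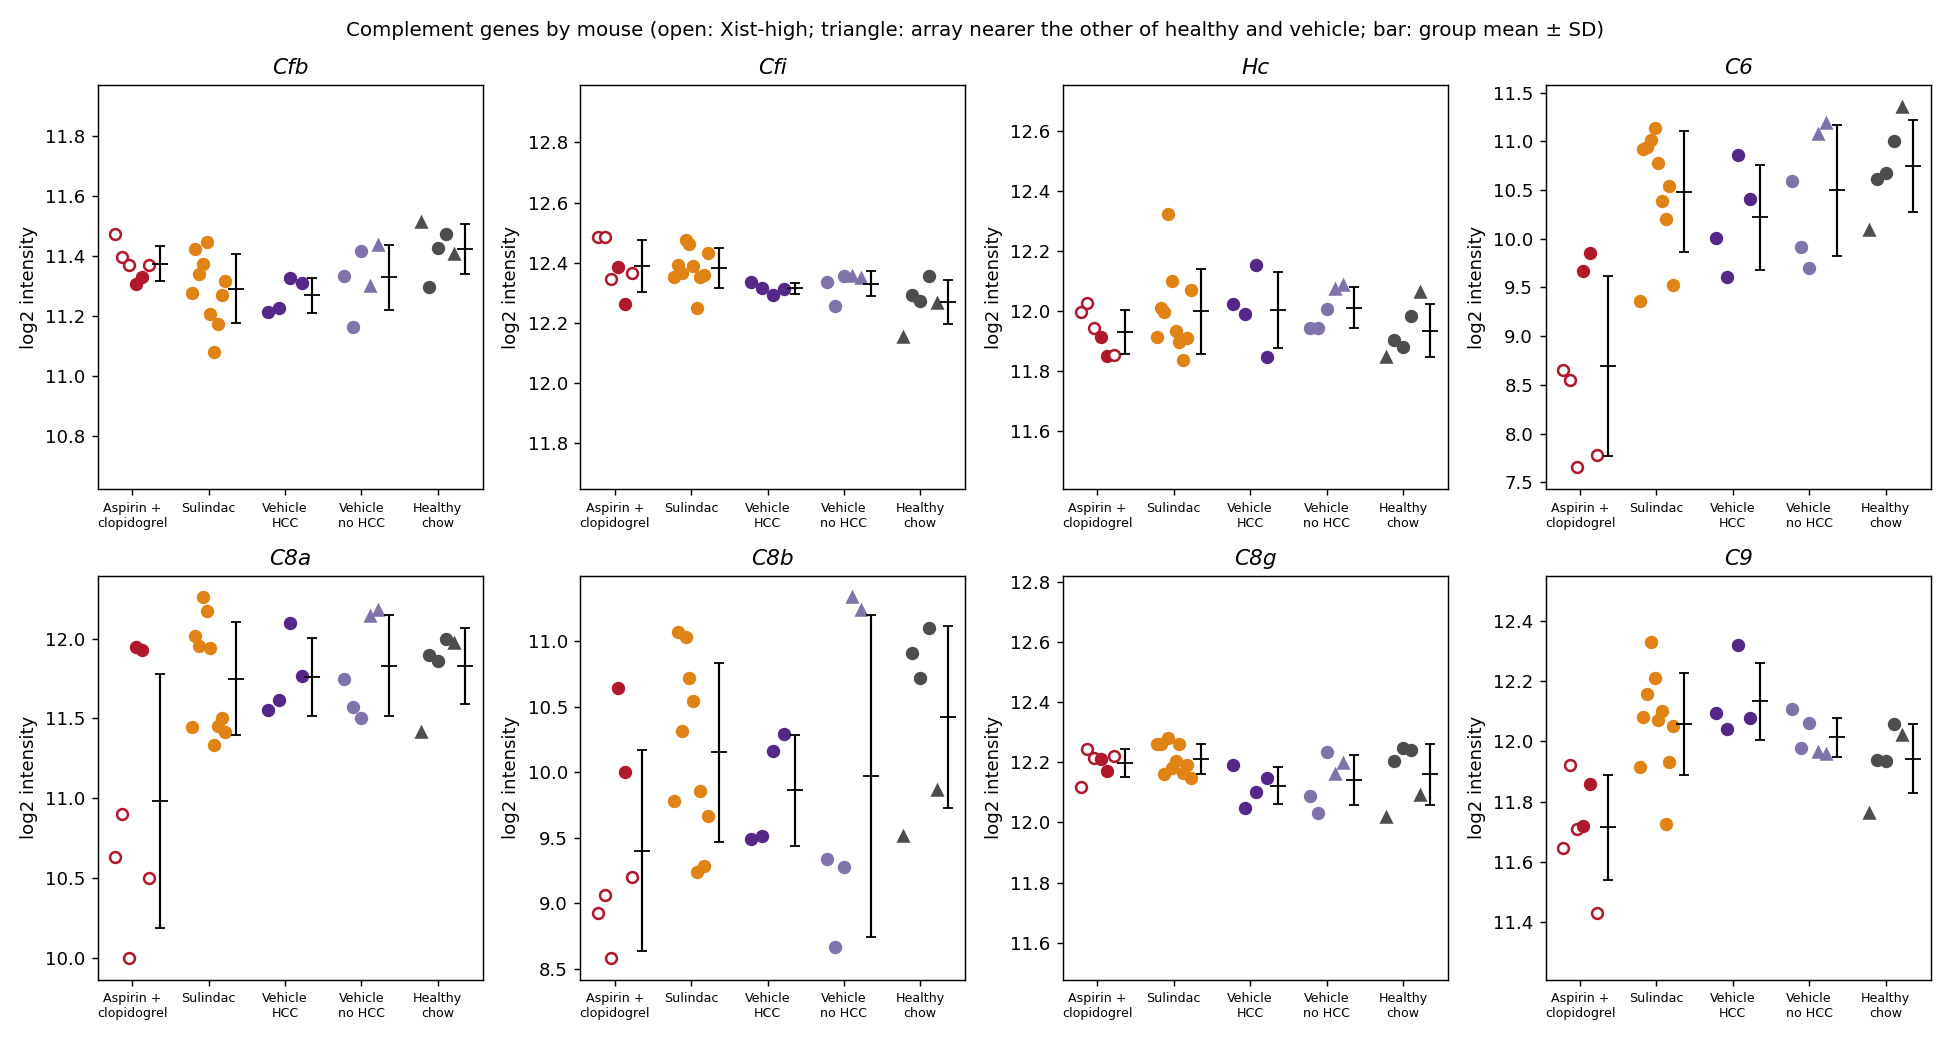
Log2 intensity (vertical axis) of the 8 measured complement genes in every mouse, by group, with the group mean and SD at the right of each group. Open circles are the 4 Xist-high AspClo mice, which lie below all other mice for C6 and C8a, and triangles are the 4 healthy and vehicle mice whose arrays lie nearer the other of these groups.

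**Figure D2:**
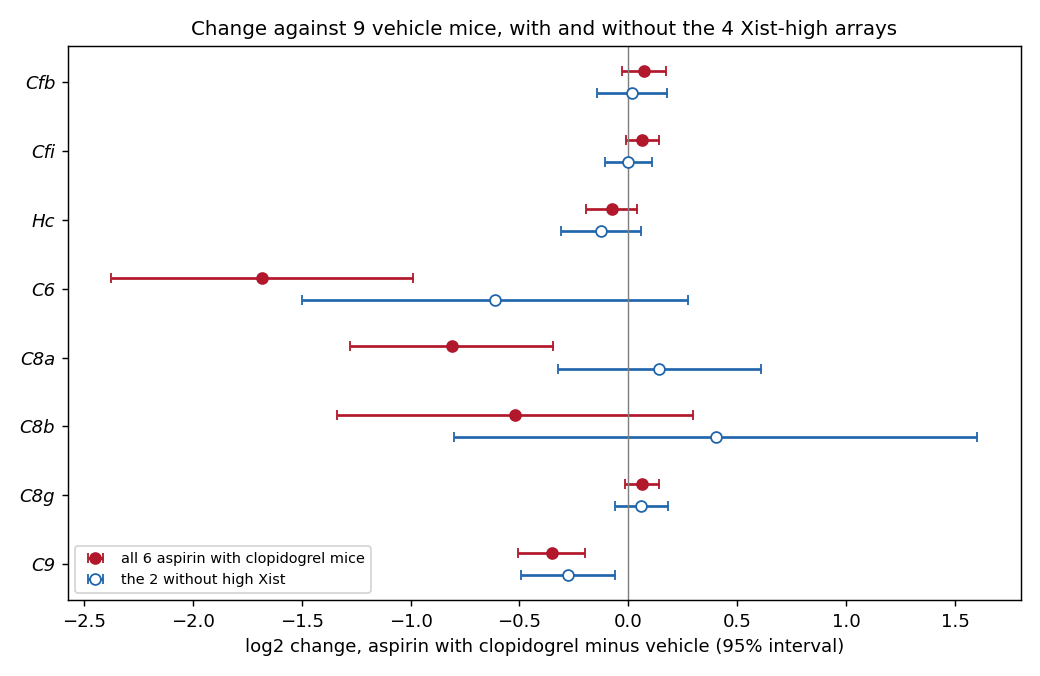
Log2 change of each complement gene in AspClo against the 9 vehicle mice (horizontal axis), with 95% intervals, for all 6 AspClo mice (filled) and for the 2 that are not Xist-high (open). C6 is at -1.68 with all mice and -0.61 without the Xist-high ones, and C8a is at -0.81 and 0.14.

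C6 and C8a moved with the Xist-high arrays, which occurred only in the AspClo group, so in those 4 mice the drugs and whatever sets Xist apart cannot be told apart. Over all genes, 335 passed with all 6 AspClo mice, and 7 of 17097 (0.0409%) passed with the 2 that remained, where 1332 had an unadjusted p under 0.05. None of the 8 complement genes passed there. With 2 mice the intervals are wide, and a missed threshold does not show equal expression.

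AspClo livers were also compared with sulindac livers, which share the diet and a cyclooxygenase inhibitor. Here too 2 of the 8 genes passed, where 0.877% of all genes did. C6 had a lowest value of 9.36, a median of 10.66 and a highest of 11.13 over the 10 sulindac mice, so the Xist-high mice lay below the sulindac range and the other 2 inside it. The C6 change was -1.79 (SE 0.331, adjusted p = 0.00759), and -0.72 (95% interval -1.60 to 0.16) without the Xist-high mice. C9 lay between 11.73 and 12.33 with a median of 12.08 in sulindac livers, overlapping AspClo. Its change was -0.34 (SE 0.0736, adjusted p = 0.0192), and -0.27 (95% interval -0.48 to -0.06, adjusted p = 0.337) without the Xist-high mice. C9 in this comparison also missed the threshold without AspClo mouse 61 (adjusted p = 0.0648) or mouse 63 (0.0686), while its change stayed at -0.33 and -0.29. A fit of AspClo and sulindac mice alone left it above the threshold as well (adjusted p = 0.0526), with the change at -0.34. C8a passed with array weights (change -0.93, adjusted p = 0.0135), and without AspClo mouse 60 (adjusted p = 0.0204) or 62 (0.0203).

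C8a and C8b lay lower in AspClo than in sulindac livers by amounts that did not pass. C8a changed by -0.76 (adjusted p = 0.1005) and C8b by -0.75 (adjusted p = 0.51). Without the Xist-high mice these values were 0.19 and 0.17. Between the drug groups, C8g, Hc, Cfb and Cfi had changes of -0.01, -0.07, 0.08 and 0.00575, and of -0.02, -0.12, 0.03 and -0.06 without the Xist-high mice, none past the threshold. Over all genes, 51 of 17097 passed between the drug groups without the Xist-high mice.

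Against healthy livers, 1 of the 8 genes passed, where 2.77% of all genes did. C6 had a lowest value of 10.09, a median of 10.68 and a highest of 11.36 in the 5 healthy mice, all above every AspClo mouse, a separation downwards seen in 0.819% of genes. Its change was -2.05 (SE 0.389, adjusted p = 0.00322), or 4.16-fold lower in AspClo, and -0.99 (95% interval -1.94 to -0.04, adjusted p = 0.62) without the Xist-high mice. C8a had a change of -0.84 (adjusted p = 0.082), and 0.11 without the Xist-high mice. C8b had -1.02 (adjusted p = 0.285), and -0.10 without them. C9 had -0.23 (adjusted p = 0.173) and -0.15 without them, and Cfi 0.12 (adjusted p = 0.134) and 0.06 without them. The changes of C8g, Hc and Cfb were 0.04, -0.00471 and -0.05, and 0.03, -0.05 and -0.11 without the Xist-high mice. None of these 7 genes passed in either set, and 37 of 17097 genes passed without the Xist-high mice.

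Sulindac, HCC and the diet left the complement genes without a call. In sulindac against vehicle livers 0 of 8 passed, where 0.199% of all genes did. C8g had the smallest unadjusted p, with a change of 0.08 (p = 0.0255, adjusted p = 0.394). C6 changed by 0.11 (95% interval -0.50 to 0.71) and C9 by -0.01 (-0.14 to 0.13). Sulindac livers are compared with the same 9 vehicle mice as AspClo livers. In sulindac against healthy livers 0 of 8 passed, where 2.98% of genes did, with Cfi at 0.11 (p = 0.00574, adjusted p = 0.106) and Cfb at -0.13 (p = 0.0162, adjusted p = 0.191).

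Vehicle livers with HCC and vehicle livers without HCC did not differ past the threshold for any of the 8 genes, where 0.0877% of all genes passed. C6 changed by -0.27 (95% interval -1.16 to 0.61) and C8b by -0.11 (-1.15 to 0.93), so changes of more than 1.5-fold in either direction lie within both intervals. The intervals of Hc, Cfi, Cfb and C8g all stayed within 0.2 of 0.

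Vehicle against healthy livers, the comparison of the diet, gave 0 of 8, where 0.0117% of genes passed. Cfb averaged 11.30 ± 0.09 in vehicle (SD, n = 9) and 11.42 ± 0.08 in healthy livers (n = 5). Its change of -0.12 was the only one of the 8 with an unadjusted p under 0.05 (limma p = 0.0295, adjusted p = 0.696). Taken separately, vehicle mice without HCC (background 0%) and with HCC (0.0994%) also gave 0 of 8 against healthy mice.

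**Figure D3:**
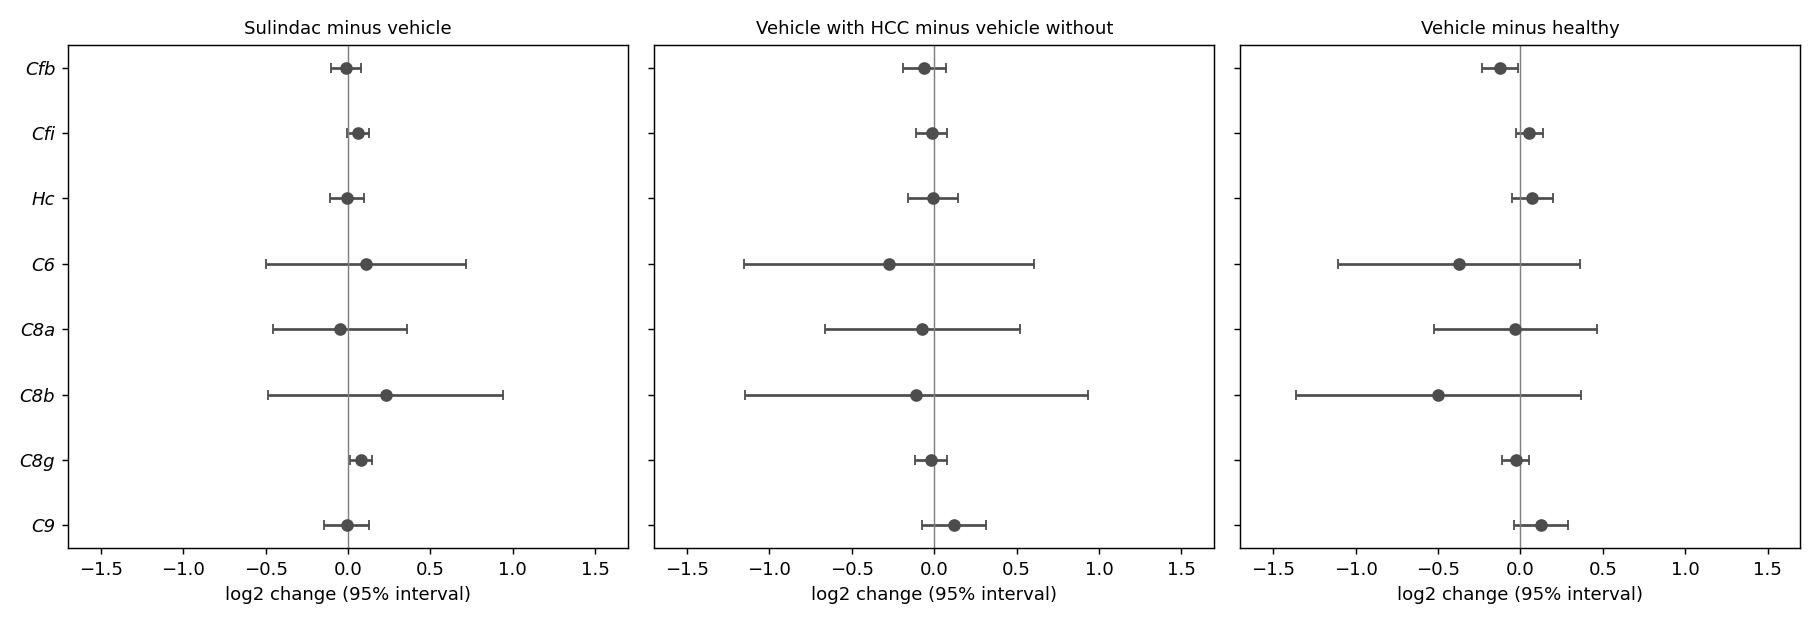
Log2 change (horizontal axis) of each complement gene, with 95% intervals, in sulindac against vehicle, vehicle with HCC against vehicle without, and vehicle against healthy livers. Intervals of C6, C8a and C8b are several times wider than those of Cfb, Cfi, Hc and C8g.

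C8b had a wide range within groups. Across all genes at or above the median mean, the vehicle mice Veh_low_794 and Veh_low_1819 lay nearer the healthy mean, and the healthy mice Hlth_1798 and Hlth_1807 nearer the vehicle mean, than to the mean of the others of their own group. C8b was 11.33 and 11.24 in Veh_low_794 and Veh_low_1819, against 8.66 to 10.29 in the other 7 vehicle mice. It was 9.51 and 9.86 in Hlth_1798 and Hlth_1807, against 10.72 to 11.10 in the other 3 healthy mice. Each pair thus lay outside the range of the rest of its own group. With all mice C8b changed by -0.50 in vehicle against healthy livers (95% interval -1.36 to 0.37). Without these 4 arrays, whose removal by construction widens the gap between the groups, it changed by -1.38 (adjusted p = 0.0439), and 959 of 17097 genes then passed, against 2 with all mice.

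Among the 26 mice that are not Xist-high, some terminal genes varied together. C8a and C8b had a Pearson r of 0.816 and a Spearman rho of 0.815 (permutation p = 1e-05 for each, the smallest that 100000 permutations can give). Adjusted over the 28 pairs of genes the values were 0.00028 and 0.00014, and r was 0.797 without the 2 mice farthest from the median of C8a. In each pair below, the 2 mice left out were likewise chosen on the first gene named, not on the second. C6 and C8a had r = 0.726 and rho = 0.778 (permutation p = 5e-05 and 1e-05, adjusted 0.000467 and 0.00014, r = 0.671 without 2 mice). Hc and C9 had r = 0.717 and rho = 0.587 (permutation p = 3e-05 and 0.00213, adjusted 0.00042 and 0.0119, r = 0.557 without 2 mice). C6 and C8b had r = 0.601 and rho = 0.65 (adjusted permutation p = 0.0104 and 0.00457, r = 0.61 without 2 mice). Hc and C8a had r = 0.562 and rho = 0.606 (adjusted permutation p = 0.0109 and 0.00847), and r fell to 0.429 without 2 mice. Cfi, not a terminal gene, had r = 0.56 and rho = 0.462 with Hc (adjusted permutation p = 0.0153 and 0.0594). That r fell to 0.347 without 2 mice. C8g, the other chain of C8, had r = 0.202 with C8a (permutation p = 0.323, adjusted 0.452; rho = 0.146, adjusted 0.605). With C8b it had r = 0.48 (permutation p = 0.0133, adjusted 0.0467), but rho = 0.348 (permutation p = 0.0816, adjusted 0.147). Mice share normalization and come from 5 groups, and the Xist-high mice are too few for a value of their own.

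Genes that varied most like the complement genes over the 30 mice were sought among 8541 brighter genes, as a description. For the mean of the 8 standardised genes these were Cdhr5 (r = 0.735), a cadherin, Cyp7b1 (0.735), an oxysterol hydroxylase, Aox3 (0.734), an aldehyde oxidase, Serping1 (0.729), the inhibitor of C1, Lims2 (0.725), Akr7a5 (0.722), Serpina11 (0.713) and Hao1 (0.711), a hydroxyacid oxidase. Over the 26 mice that are not Xist-high, r of these genes lay between 0.613 (Akr7a5) and 0.843 (Serping1). C9 was most like Stradb (0.794), C330007P06Rik (0.77) and St3gal3 (0.746), and Cfb most like Slc3a2 (0.652), Hsdl1 (0.633) and Gcgr (0.618), the glucagon receptor. Over the same 26 mice the 3 values for C9 were lower, at 0.696, 0.717 and 0.634. Those for Cfb were 0.677, 0.62 and 0.633.

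The other terminal genes were examined in the same way after their values were seen. C6 varied most like Gstp1 (r = 0.917), Cyp4a12a (0.896) and Cyp2d9 (0.883), and C8a most like Cyp2d9 (0.916), Cyp7b1 (0.908) and Ces3b (0.897). C8b varied most like Hsd3b5 (0.90), Cyp7b1 (0.875) and Slco1a1 (0.866). Cyp4a12a, Cyp2d9, Hsd3b5, Cyp7b1 and Slco1a1 are known as male-predominant genes of mouse liver. Over the 26 other mice C6 had r of 0.724, 0.689 and 0.664 with Gstp1, Cyp4a12a and Cyp2d9, and C8a had 0.646, 0.841 and 0.802 with Cyp2d9, Cyp7b1 and Ces3b. C8b had 0.895, 0.876 and 0.819 with Hsd3b5, Cyp7b1 and Slco1a1 over these mice, close to the values over all 30. Hsd3b5 was 11.49 and 11.11 in Veh_low_794 and Veh_low_1819, against 4.33 to 7.31 in the other 7 vehicle mice, the same division as in C8b.

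**Figure D4:**
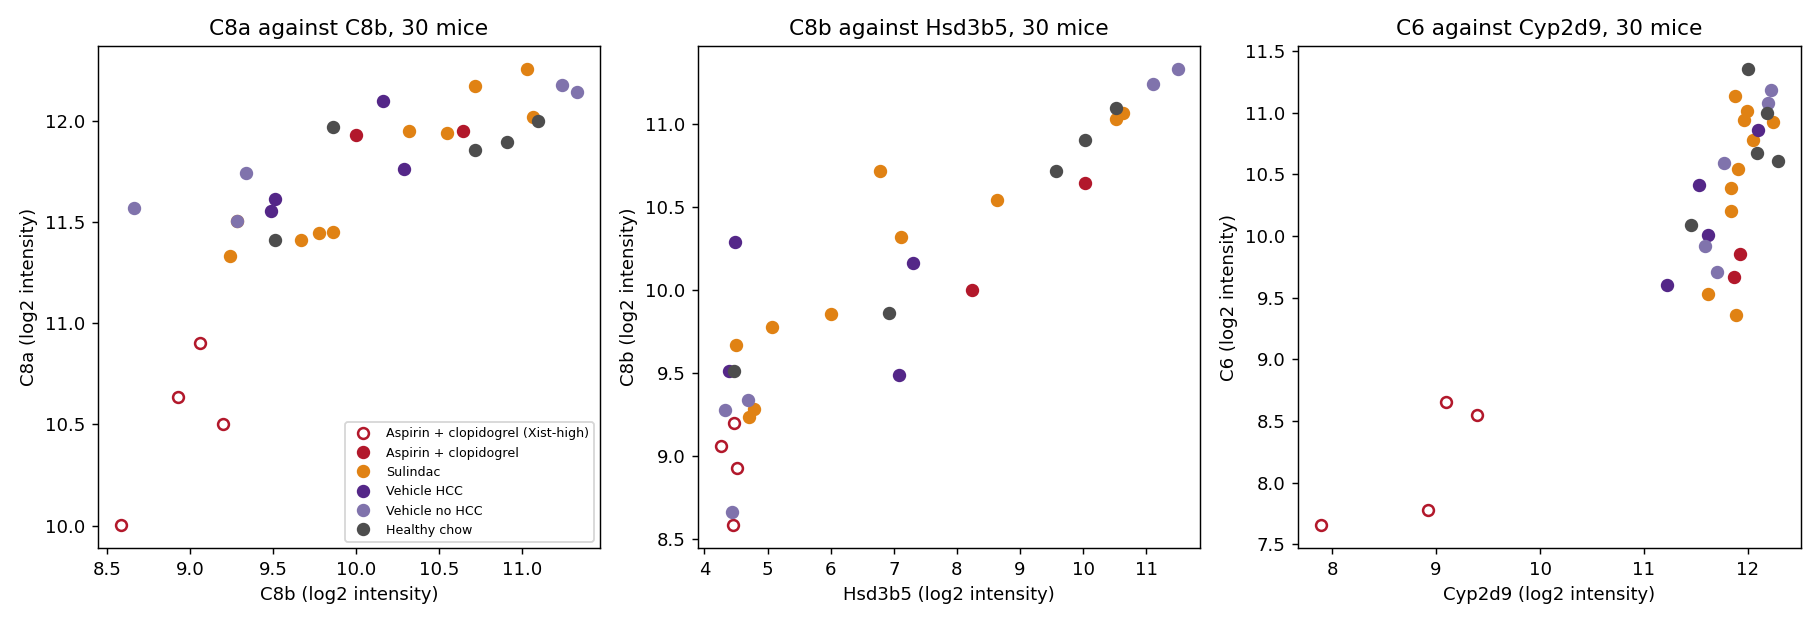
Each point is 1 mouse: C8a (vertical axis) against C8b, C8b against Hsd3b5, and C6 against Cyp2d9, all in log2 intensity. The Xist-high AspClo mice (open) lie apart for Cyp2d9, while C8b and Hsd3b5 run together across groups.

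Elsewhere in the pathway few genes differed between AspClo and vehicle livers, where 1.96% of all genes did. Of 15 measured initiation genes 1 was higher, Mbl2, the mannose-binding lectin C, with 11.78 to 12.00 in AspClo and 11.42 to 11.78 in vehicle livers (change 0.32, SE 0.0736, adjusted p = 0.0196). The median change of the 15 was 0.07, against 0.00172 over all genes. Of 10 measured regulators 1 was lower, C4bp, which dissolves the C4b-containing convertase (change -0.24, SE 0.0479, adjusted p = 0.0086), with a median over the 10 of 0.02. C4bp was also lower against sulindac livers, by -0.24 (adjusted p = 0.0102). It lay between 11.65 and 11.69 in the Xist-high mice and at 11.86 and 11.94 in the other 2, against 11.92 to 12.03 in vehicle livers.

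None of 8 measured receptors passed, and their median was -0.06. Vsig4, the complement receptor of Kupffer cells, had a change of 1.04 (adjusted p = 0.319), and Itgb2, the shared beta chain of complement receptors 3 and 4, had -0.15 (adjusted p = 0.901). Their changes were 0.18 and -0.88 without the Xist-high mice (adjusted p = 0.977 and 0.711). Vsig4 lay at 10.39 to 11.02 in the Xist-high mice and at 9.16 and 9.77 in the other 2. Summed Kupffer cell and macrophage markers moved with it, at 6809 to 8809 in the Xist-high mice, 3681 and 5347 in the other 2 and 4006 to 8552 in vehicle livers, and their part in the result was not tested. C7, the other terminal component, has no value here. In sulindac against vehicle, in HCC and in vehicle against healthy livers none of these initiation, regulator or receptor genes passed.

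Acute phase, IL6 and NF-kB input and liver transcription factor genes gave 3 calls in AspClo against vehicle livers, where 1.96% of all genes passed. Of 14 measured acute phase genes 1 was higher in AspClo, Crp, C-reactive protein (change 0.17, SE 0.0425, adjusted p = 0.0349), and the median of the 14 was -0.01. Of 9 measured genes of the IL6 and NF-kB inputs 1 was lower, Cebpd, which encodes C/EBP delta (change -0.67, SE 0.166, adjusted p = 0.0309), with a median of -0.11. Of 8 measured liver transcription factors 1 was higher, Nr5a2, the nuclear receptor LRH-1 (change 0.55, SE 0.125, adjusted p = 0.0201), with a median of 0.06.

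Without the Xist-high mice none of these 5 genes passed, where 7 of 17097 genes did, and all kept their direction. The mice that remain were also in the fit that picked the 5 genes, so a kept direction is no separate support. The change was 0.25 for Mbl2, -0.08 for C4bp, 0.14 for Crp, -0.62 for Cebpd and 0.40 for Nr5a2, with adjusted p between 0.543 for Cebpd and 0.808 for C4bp. Of the 5, C4bp had the smallest change without the Xist-high mice.

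Against healthy livers more genes of these lists passed in AspClo, where 2.77% of all genes did. The 4 acute phase genes called, all higher, were Crp (0.25), Apcs (0.66), which encodes serum amyloid P, Fga (0.23), the fibrinogen alpha chain, and Itih4 (0.26), with adjusted p between 0.0043 for Crp and 0.041 for Apcs. Of the initiation genes Mbl2 (0.45) and Colec10 (1.07), a collectin, were higher, of the input genes Cebpd was lower (-0.93), and of the transcription factors Nr5a2 was higher (0.55). None of these 8 genes passed without the Xist-high mice, where 37 of 17097 genes did, and all kept their direction. The mice left in were part of the fit that picked these genes, so a kept direction is no separate support. In sulindac against healthy livers, where 2.98% of genes passed, the calls were Mbl2 (0.28), Colec10 (0.79) and Fga (0.17), all higher. AspClo and sulindac livers share the 5 healthy mice, and these genes are named after their values were seen.

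Markers of other cells differed between the groups as well, and their part in the changes of C6, C9 and C8a was not tested. Summed red blood cell markers (4 of 7 measured) lay between 11660 and 15125 in AspClo, between 10887 and 14606 in sulindac, between 3864 and 10871 in vehicle and between 3271 and 6158 in healthy livers. The sums were high in both drug groups, but the 4 genes did not all move alike. In AspClo against vehicle livers 2 of them passed the threshold as higher and 1 as lower, where 1.96% of all genes passed. Summed neutrophil markers (7 of 8 measured) lay between 264 and 462 in the Xist-high mice, at 186 and 191 in the other 2 AspClo mice and between 169 and 240 in vehicle livers. Among these mice the Xist-high ones had the highest sums. Sulindac and healthy sums reached 292 and 1286, above the lowest Xist-high sum. Summed endothelial markers (9 of 10 measured) lay at 2442 to 2973 in the Xist-high mice and at 2122 and 2181 in the other 2. They overlapped those of vehicle livers (1363 to 2610), and sulindac livers reached 2700. Stellate, cholangiocyte and lymphocyte sums of AspClo livers lay between 4525 and 5542, between 153 and 171, and between 208 and 240, against 4033 to 6752, 152 to 188 and 218 to 251 in vehicle livers.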

How the data were processed

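Liver RNA of 30 mice was hybridised to Affymetrix HT MG-430 arrays. Each deposited intensity is the authors' RMA summary of a probe set after quantile normalization, per the design text of the series (RMA also per the submitters' processing notes, with no version). Deposited intensity is linear (13.8 to 13668) and log2 was taken here. RMA shrinks small changes near background, and the number of arrays limits precision.

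Of 45141 probe sets, 104 are controls, 28898 have 1 gene symbol, 551 several and 15588 none in the platform annotation; 28689 matched RefSeq by Entrez identifier. Each of 17097 genes was represented by its brightest probe set on average, with no filter. Groups came from the labels. A model with 5 group means was fitted with limma 3.58.1 in R 4.3.3 (25 residual degrees of freedom), and moderated tests were adjusted by Benjamini-Hochberg over all genes (threshold 0.05). The fit was tested on simulated arrays. Correlations used 100000 permutations.

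The members and gene lists were chosen with earlier results of these data known. Named are the members, up to 4 called genes per list and main comparison (or its 2 brightest), and the genes most like the members. The labels give 1 array per mouse and no litter, cage or batch. Alternatives were the arrays and vehicle mice used, each mouse left out, probe sets averaged, dim genes removed, a variance trend, array weights and 75th percentile scaling. Leaving out the Xist-high arrays (Xist above 8) was chosen after seeing the data.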

Additional observations from a re-analysis of the deposited data

Results flagged for a closer look

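In 2 of 40 groups of values (8 genes in 5 groups) 1 mouse lay far from the rest of its group by Dixon's gap test, and chance alone gives about 1 in 20. Cfi in vehicle livers without HCC was lowest in Veh_low_1825, at 12.2551, with the nearest mouse at 12.3367 and the gap taking 0.8195 of the range. C8a in healthy livers was lowest in Hlth_1798, at 11.4125, with the nearest mouse at 11.858 and the gap taking 0.7607 of the range. Hlth_1798 is also one of the healthy mice whose arrays lie nearer the vehicle mean.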

How the results depend on the processing

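The count of complement genes past the threshold was 2 in AspClo against vehicle livers, 1 when only the groups compared entered the fit, 1 against vehicle mice without HCC alone, 1 against vehicle mice with HCC alone, 0 without the 4 Xist-high arrays and 0 without these and the 4 arrays nearer another group. Leaving out 1 mouse gave 2 to 3. In AspClo against sulindac livers the count was 2, and 1, 0 and 0 with only the groups compared, without the Xist-high arrays and without both sets; array weights gave 3 and leaving out 1 mouse 1 to 3. In AspClo against healthy livers it was 1, and 0, 2, 2, 3, 0 and 0 with only the groups compared, without the 4 arrays nearer another group, with brighter genes only, with array weights, without the Xist-high arrays and without both sets; leaving out 1 mouse gave 1 to 3. In vehicle against healthy livers, and in vehicle livers without HCC against healthy ones, it was 0, and 1 without the 4 arrays nearer another group or without both sets. The gene is C8b, with changes of -1.38 and -1.82; over all genes 2 and 0 passed with all mice, 959 and 505 without the 4 arrays, and 1118 and 616 without both sets. The counts for sulindac, HCC, HCC against healthy and sulindac against healthy were 0 under every alternative run. C6 in AspClo against vehicle had an adjusted p of 0.0523 with only the groups compared and 0.0705 against vehicle with HCC alone, and C9 had 0.0827 against vehicle without HCC alone. C8a passed in that comparison without mouse 60 (0.0111) or 62 (0.00967), with brighter genes only (0.0368) and with array weights (0.0229). Fewer arrays or degrees of freedom account for part of the settings by construction, and otherwise the cause was not tested. No called change turned its direction. No paired analysis was possible because the groups share no replicate number. With 2 AspClo mice without high Xist the intervals are wide, and in the other 4 high Xist and the drugs cannot be told apart.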
